A study of Mus musculus with 16 samples.

Results

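The 38 genes described here are orthologs of human chromosome 21 (Hsa21) genes that lie on mouse chromosome 16 (Mmu16) outside the segment duplicated in Ts1Rhr (Ts) mice, so that Ts cells are taken to carry 2 copies of them, as euploid (WT) cells do. They were chosen by gene symbol, and every probe of the array annotated to a member was taken. Of the 38 members, 34 had at least 1 probe, among 16593 genes with a named probe, and these members held 52 probes. *Ltn1*, *Synj1*, *Hunk* and *Urb1* had none and are named only.

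Keratinocytes were cultured from newborn pups of Ts mice and of WT mice, both on the FVB/N strain, and RNA was hybridized to Illumina MouseRef-8 bead arrays. Cultures of each genotype were treated with 0.2 μM TPA, a phorbol ester tumor promoter, for 12 h or were left untreated (NT). This gave Ts-TPA, Ts-NT, WT-TPA and WT-NT with 4 arrays each, and each line of cells came from 1 pup. The Ts1Rhr mice came from a colony on another strain background, C57BL/6J, and were bred onto FVB/N by repeated backcrossing. The strain in which the duplication was made is not given in the sources used here. Which parental alleles the Ts cultures kept beside the segment was not measured on these arrays.

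People with Down syndrome carry an additional copy of Hsa21, and most orthologs of its genes lie on the distal part of Mmu16, with the rest on chromosomes 17 and 10. Ts1Rhr mice are trisomic only for the stretch from *Cbr1* to *Fam3b*, so the members include many genes that other Down syndrome mouse models carry in 3 copies, such as *Sod1*, *Gart*, *Son* and *Runx1*. In a Ts1Rhr cell they share a chromosome with the duplication without being part of it. The comparison of genotypes asks how such genes were expressed beside a trisomic segment, and the comparison with TPA asks how they responded to the promoter.

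In the RefSeq order along the chromosome, 35 members came before *Cbr1*, the last of them *Setd4*, whose neighbor is *Cbr1* itself. *Mx2* and *Tmprss2* came after *Fam3b*. *Mx1* goes against the description of the group, since this order places it between *Bace2* and *Fam3b*, inside the stretch. Its copy number in Ts was not measured, and it was detected on none of the 16 arrays, so no result rests on it.

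The promoters of 5 members are shown because the genotype results turn on these genes: *Tmem50b* and *Gabpa* were each called in 1 comparison once replicate number was a block, *Cct8* and *Usp16* had groups that did not overlap, and *Setd4* had the largest positive difference in both genotype comparisons. Each is the RefSeq window of GRCm38.p6 from 250 bases before to 50 bases after the gene's start, printed 5′ to 3′ on the strand of the gene. *Gabpa* encodes the DNA-binding subunit of GA-binding protein, a factor of the ETS family. Capitals mark the extended ETS sequence CCGGAAG on either strand, where it reads CTTCCGG on the other. Shorter ETS-type stretches, such as GGAA alone, were neither marked nor counted. The windows are chr16:91597631-91597930 (minus strand) for *Tmem50b*, chr16:84834874-84835173 (plus) for *Gabpa*, chr16:87495820-87496119 (minus) for *Cct8*, chr16:87454735-87455034 (plus) for *Usp16* and chr16:93603766-93604065 (minus) for *Setd4*.
Tmem50b: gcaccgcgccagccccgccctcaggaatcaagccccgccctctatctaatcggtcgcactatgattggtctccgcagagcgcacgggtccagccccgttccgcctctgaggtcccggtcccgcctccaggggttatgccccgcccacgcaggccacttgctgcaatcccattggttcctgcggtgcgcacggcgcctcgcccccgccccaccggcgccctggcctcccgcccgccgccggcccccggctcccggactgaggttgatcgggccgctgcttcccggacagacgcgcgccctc
Gabpa: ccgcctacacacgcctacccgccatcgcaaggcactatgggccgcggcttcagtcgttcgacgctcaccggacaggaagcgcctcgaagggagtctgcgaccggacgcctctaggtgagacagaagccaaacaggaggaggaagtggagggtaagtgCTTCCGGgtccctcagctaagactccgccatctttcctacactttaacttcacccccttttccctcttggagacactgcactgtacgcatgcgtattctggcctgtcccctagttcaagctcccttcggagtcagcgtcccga
Cct8: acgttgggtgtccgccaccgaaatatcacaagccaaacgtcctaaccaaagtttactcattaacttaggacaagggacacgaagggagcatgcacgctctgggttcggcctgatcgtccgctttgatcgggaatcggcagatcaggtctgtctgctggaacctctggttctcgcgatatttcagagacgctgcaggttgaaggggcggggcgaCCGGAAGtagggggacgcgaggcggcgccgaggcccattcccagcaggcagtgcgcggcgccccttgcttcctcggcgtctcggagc
Usp16: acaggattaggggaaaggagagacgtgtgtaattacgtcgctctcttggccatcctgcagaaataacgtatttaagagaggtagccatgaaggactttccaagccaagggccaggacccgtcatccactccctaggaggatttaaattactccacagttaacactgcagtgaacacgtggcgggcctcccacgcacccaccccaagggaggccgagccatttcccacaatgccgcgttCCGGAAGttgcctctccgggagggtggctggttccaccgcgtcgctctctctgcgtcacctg
Setd4: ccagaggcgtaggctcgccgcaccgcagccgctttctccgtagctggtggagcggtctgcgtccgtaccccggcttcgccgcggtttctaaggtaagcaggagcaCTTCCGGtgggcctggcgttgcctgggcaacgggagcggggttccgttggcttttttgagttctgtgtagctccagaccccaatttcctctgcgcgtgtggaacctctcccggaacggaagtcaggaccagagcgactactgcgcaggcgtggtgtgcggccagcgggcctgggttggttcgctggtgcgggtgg
Of the printed windows, *Gabpa*, *Cct8*, *Usp16* and *Setd4* each held 1 match to this extended sequence and *Tmem50b* held 0. *Paxbp1*, whose untreated groups also did not overlap, was not printed, and its window held no match. Promoter windows were at hand for 31 of the 38 members, 6 of them with 2 windows each. Over these 37 windows 8 held the extended sequence (21.6%), against 2910 of all 32851 windows of the same length (8.86%). The other windows with a match were those of *Gart*, *Donson*, *Cfap298* and *Urb1*. A match is a description of the letters and not a site of binding.

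Signals were brought to a normalized log2 intensity, on which all values below are given. A probe counted as detected on an array at a detection p of at most 0.01, and it was tested if 4 or more of the 8 arrays of a genotype detected it. By this filter 6063 genes were tested, among them 19 of the 34 members with a probe. *Paxbp1*, *Son* and *Nrip1* passed it only through WT arrays, so for them a lower value in Ts is partly fixed by the filter. A gene was called at an adjusted p under 0.05 in limma, adjusted over all 8317 probes tested, and its values are those of its brightest probe. Differences between genotypes and changes with TPA are printed relative to all genes, which means minus the median over the 6063 genes. That median was −0.15 for Ts-NT minus WT-NT and −0.20 for Ts-TPA minus WT-TPA, and −0.10 and −0.06 for TPA in Ts and in WT.

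Some values of the whole series bear on all results near the detection limit. The signal of probes taken as background (detection p over 0.5) had medians of 175 to 239 over the 8 Ts arrays, against 138 to 151 over the 8 WT arrays. Array background and genotype cannot be told apart. Members detected per untreated array numbered 16 to 17 in Ts, against 18 to 21 in WT. With TPA these counts were 15 to 18 in Ts, against 16 to 19 in WT. The cells carried keratinocyte markers: 9 of 10, with *Krt14*, *Krt5* and *Trp63* among them, were detected on all 16 arrays and *Krt15* on none. Of 11 fibroblast markers 2 (*Sparc* and *Vim*) were detected on all 16 arrays, and *Lum*, *Pdgfra* and *Postn* on none. The summed normalized level of the fibroblast markers, taken back to a linear scale, overlapped between genotypes, at 1049 to 1499 in Ts-NT against 847 to 1335 in WT-NT. Melanocyte markers were present: 5 of 6 (*Dct*, *Mitf*, *Mlana*, *Pmel* and *Tyrp1*) were detected on all 16 arrays and none was absent from all. Their summed level also overlapped between genotypes, at 10379 to 15839 in Ts-NT against 9778 to 19181 in WT-NT. With TPA it was 10271 to 13781 on the Ts arrays and 11053 to 17589 on the WT arrays. Of 3 Schwann and glial markers *Mbp* was on all 16 arrays and the other two on none, and of 7 immune and 6 endothelial markers, 5 and 4 were on no array. The part of these cells in the results was not tested. In bulk RNA, fewer cells of a type and less RNA per cell cannot be told apart.

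**Figure D1:**
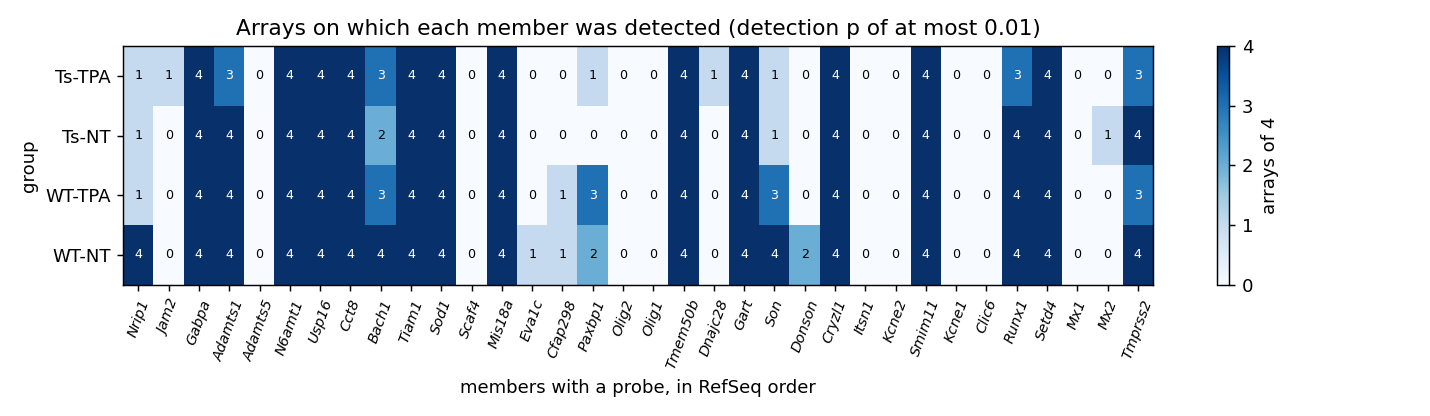
Number of arrays (of 4, color and digit) on which the brightest probe of each of the 34 members with a probe was detected, by group (rows), with members in RefSeq order (columns). Members were mostly either on nearly all arrays or on none. Among the tested members, *Nrip1*, *Bach1*, *Paxbp1* and *Son* were detected on more WT-NT arrays than Ts-NT arrays.

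Detection by the probes set the first division among the members, and it is not the same as expression. For *Gabpa* and *Setd4*, 1 probe was detected on all 16 arrays and every other probe on none. Whether undetected members were expressed was not tested. Of the 19 members past the filter 12 were detected on all 16 arrays: *Gabpa*, *N6amt1*, *Usp16*, *Cct8*, *Tiam1*, *Sod1*, *Mis18a*, *Tmem50b*, *Gart*, *Cryzl1*, *Smim11* and *Setd4*. Among them are genes of antioxidant defense (*Sod1*), purine synthesis (*Gart*), protein folding (*Cct8*) and the loading of centromeric histone (*Mis18a*). Another 9 of the members with a probe were detected on no array. They include *Olig1* and *Olig2*, transcription factors of the oligodendrocyte lineage, the potassium channel subunits *Kcne1* and *Kcne2*, the intracellular chloride channel gene *Clic6*, the endocytic scaffold *Itsn1*, the versican-cleaving protease *Adamts5*, *Scaf4* and *Mx1*.

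A further 6 members (*Jam2*, *Eva1c*, *Cfap298*, *Dnajc28*, *Donson* and *Mx2*) were detected on 1 or 2 arrays and were not tested. *Mx2*, an interferon-induced GTPase gene that RefSeq lists as a transcribed pseudogene in the C57BL/6J genome, as it does *Mx1*, was detected on 1 array, of Ts-NT. Its values were 5.51, 5.85, 5.63 and 6.29 on the Ts-NT arrays, against 4.96, 4.93, 4.59 and 4.94 on the WT-NT arrays. With TPA they were 5.41, 5.83, 5.81 and 5.39 in Ts-TPA, against 5.01, 5.15, 5.49 and 5.18 in WT-TPA. The untreated groups did not overlap, but both lay near the detection limit, where background goes with genotype, and no fold is given.

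No member was called between genotypes without a block for the replicate number, in untreated or in treated cells. Among all genes tested 4 (0.0660%) were called between Ts-NT and WT-NT and 1 (0.0165%) between Ts-TPA and WT-TPA. At an unadjusted p under 0.05 there were 2 of 19 members in Ts-NT, against 12.0% of all genes, and 4 of 19 in Ts-TPA, against 13.8%. The 2 in Ts-NT were *Tmem50b* and *Paxbp1*, and *Paxbp1* passed the filter only through WT arrays. The members lay around the median of all genes: their median relative difference was −0.01 in Ts-NT (9 of 19 above the median of all genes) and 0.04 in Ts-TPA (10 of 19). The 14 tested genes of the Ts1Rhr stretch had medians of 0.26 (13 of 14 above) and 0.19 (11 of 14), and 17 tested Hsa21 orthologs on chromosomes 17 and 10, which also have 2 copies, had 0.13 (12 of 17) and 0.13 (13 of 17). These lists are set side by side as counts and medians, without a test between them. Without *Paxbp1*, which was undetected in Ts-NT, the member medians were −0.0003 and 0.05.

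**Figure D2:**
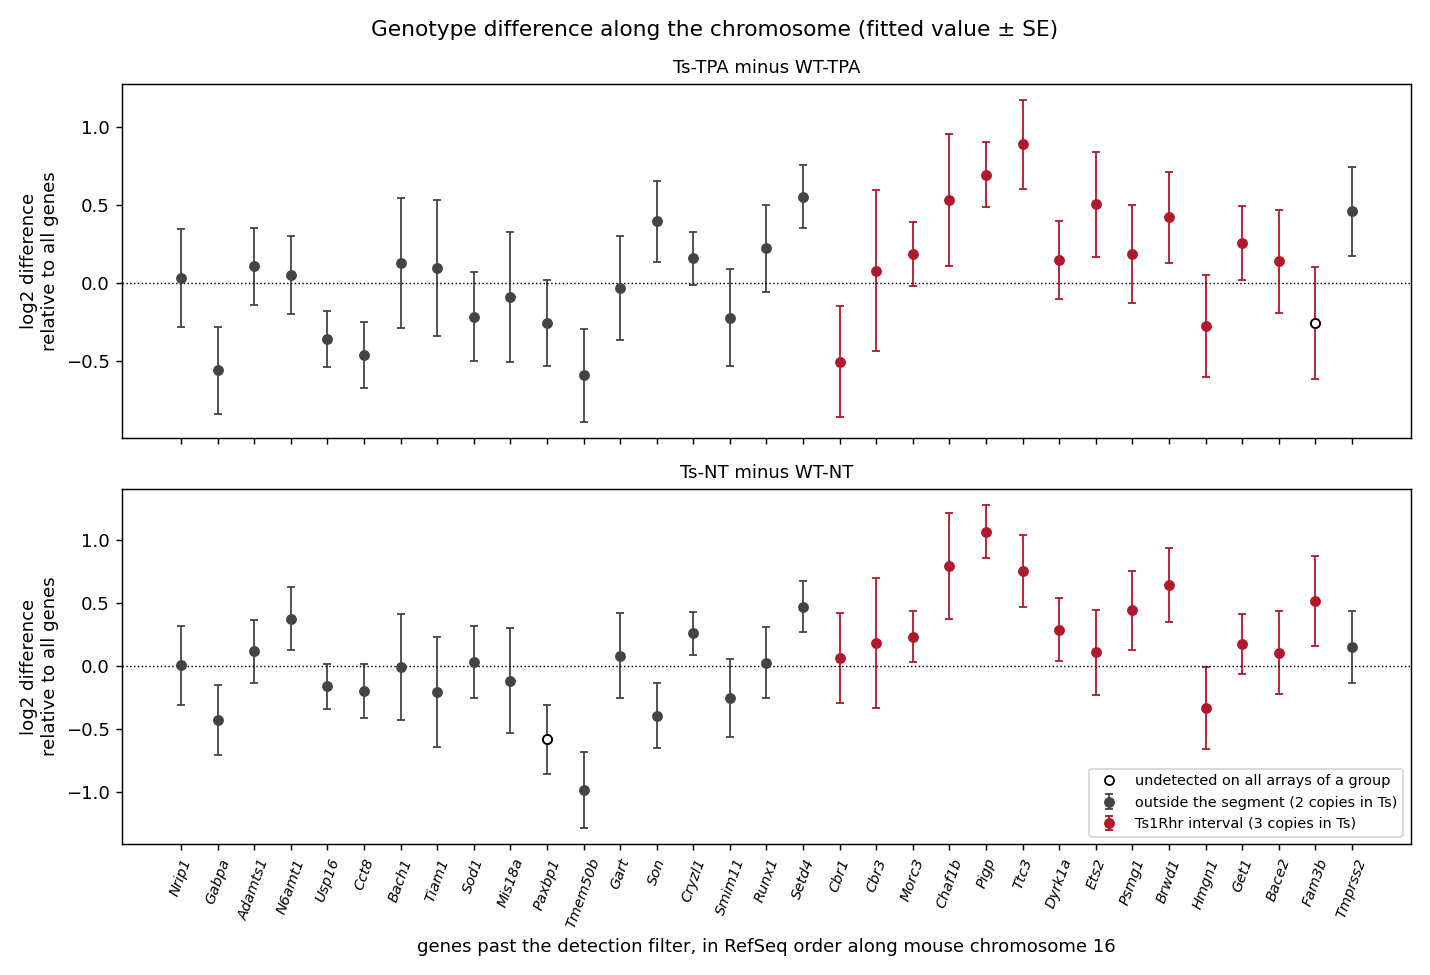
Fitted log2 difference between genotypes relative to all genes (points, bars ± SE) for the 19 tested members (gray) and the 14 tested genes of the Ts1Rhr stretch (red), in RefSeq order along chromosome 16, for Ts-TPA minus WT-TPA (top) and Ts-NT minus WT-NT (bottom), with open symbols for genes undetected on all arrays of a group. Members scatter around 0, with *Tmem50b* the lowest at −0.98 in Ts-NT, whereas 13 of the 14 genes of the stretch lie above 0 there.

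The precision for single members was limited with 4 arrays per group. The 95% interval of a member's genotype difference had a median half-width of 0.59 on the log2 scale, and it included 0 for 16 of the 19 members in Ts-NT and for 17 in Ts-TPA. It also included 0.58, the log2 of the copy ratio 1.5, for 12 and 10 members. A missed threshold therefore does not show that a member was equal in both genotypes.

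*Tmem50b*, which encodes a small protein of the endoplasmic reticulum and Golgi membranes, had the largest difference between genotypes of any member. Its level was 7.45, 8.34, 7.70 and 8.23 on the Ts-NT arrays, against 9.10, 9.07, 8.79 and 9.28 on the WT-NT arrays. All 4 Ts-NT arrays were below all 4 WT-NT arrays (7.26% of all genes), and the gene was detected on all 16 arrays. The difference was −1.13 ± 0.30 (SE), or −0.98 relative to all genes, which is a ratio of 0.507 to WT-NT. Only 0.553% of the genes tested had a difference this low or lower. The adjusted p was 0.168 without a block, and 0.0199 when replicate number was added as a block, under which 91 of 6063 genes (1.50%) were called lower and *Tmem50b* was the 1 member called. This call was lost without replicate 1, 3 or 4 (adjusted p = 0.0903, 0.0964 and 0.166) and with neqc normalization (adjusted p = 0.0756), and the 91 genes lower became 0 to 14 with 1 replicate left out, 12 with neqc and 26 with quantile normalization.

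With TPA *Tmem50b* had 7.82, 9.31, 7.91 and 8.55 in Ts-TPA, against 8.91, 9.66, 8.86 and 9.32 in WT-TPA. The groups overlapped, because replicate 2 was high in both, and each Ts-TPA array was below the WT-TPA array of its own number, as for 26.8% of all genes. The relative difference was −0.59, with an adjusted p of 0.250, or 0.0536 with the block. A second probe of *Tmem50b*, detected on all 16 arrays, gave a smaller difference. It read 6.28, 7.05, 7.24 and 6.35 in Ts-NT, against 7.07, 6.73, 7.38 and 7.04 in WT-NT. Its relative difference was −0.17 in Ts-NT (adjusted p = 0.727) and 0.06 in Ts-TPA (adjusted p = 0.882).

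*Gabpa*, the ETS factor subunit introduced with the promoters, was the other member called under the block. Its level was 6.36, 6.68, 7.15 and 7.25 in Ts-TPA, against 7.06, 7.51, 8.01 and 7.88 in WT-TPA. The ranges overlapped slightly, and each Ts-TPA array was below the WT-TPA array of the same number. The relative difference was −0.56, a ratio of 0.681 to WT-TPA, with an adjusted p of 0.239 without the block and 0.0485 with it. The blocked call was lost without any 1 replicate (adjusted p 0.0892 to 0.196) and with each other normalization (0.159 to 0.232). Under the block 136 of 6063 genes (2.24%) were called lower in Ts-TPA. Untreated, *Gabpa* had 6.09, 6.69, 6.28 and 6.66 in Ts-NT, against 6.37, 6.91, 7.54 and 7.22 in WT-NT, again lower in each of 4 pairs (24.6% of all genes), with a relative difference of −0.42 (adjusted p = 0.406, or 0.112 with the block). Of its partners and relatives, 5 genes were tested (*Gabpb1*, *Ets1*, *Ets2*, *Elf1* and *Elk3*), and none was called in any comparison.

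*Usp16* and *Cct8* are next to each other on the chromosome, and their values are set out here because their groups stood apart. *Usp16* encodes an enzyme that removes ubiquitin from histone H2A. Its level was 8.90, 8.87, 8.77 and 8.51 in Ts-TPA, against 9.30, 9.50, 9.39 and 9.09 in WT-TPA. The groups did not overlap, which by brightest probes held for 1 of 19 members and, in the lower direction, for 6.35% of all genes. The relative difference was −0.36 (adjusted p = 0.192). In untreated cells it read 8.62, 9.06, 9.28 and 8.99 in Ts-NT, against 9.31, 9.27, 9.32 and 9.30 in WT-NT, with 1 Ts-NT array within the narrow WT-NT range and a relative difference of −0.16 (adjusted p = 0.484).

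*Cct8* encodes the theta subunit of the TRiC chaperonin, a ring that folds actin and tubulin. Its level was 10.41, 10.03, 10.22 and 10.52 in Ts-NT, against 10.72, 10.69, 10.64 and 10.52 in WT-NT. The groups touched at replicate 4 without overlapping. With TPA it was 10.37, 9.29, 9.94 and 10.11 in Ts-TPA, against 10.63, 10.63, 10.34 and 10.71 in WT-TPA, where the lowest WT-TPA array lay within the Ts-TPA range. The relative differences were −0.20 (adjusted p = 0.513) and −0.46 (adjusted p = 0.194). Beside *Cct8*, 7 genes of the chaperonin and its cofactor prefoldin were tested, and none was called without the block. *Tcp1*, the alpha subunit, was the one called with it, lower in Ts-TPA at −0.92 relative to all genes (adjusted p = 0.0494, or 0.153 without the block).

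Between Ts-NT and WT-NT the groups stood apart for 3 of 19 members, all lower (*Tmem50b*, *Cct8* and *Paxbp1*), against 7.26% of all genes apart in that direction. The count includes *Paxbp1*, which passed the filter only through WT arrays, so for this gene a lower value in Ts was partly fixed by the filter. *Paxbp1* encodes a nuclear protein that binds PAX3 and PAX7 in mouse muscle precursors. Its signal was 5.04, 5.00, 4.67 and 5.36 in Ts-NT, against 5.74, 5.77, 5.82 and 5.67 in WT-NT. It was detected on none of the Ts-NT arrays and on 2 of the WT-NT arrays. The WT-NT mean of 5.75 lay below 6.04, the mean of the lowest detected signals on the Ts-NT arrays, so no fold is given. In treated cells it was detected on 1 Ts-TPA array and 3 WT-TPA arrays. Its signal there was 6.08, 5.49, 4.42 and 5.69 in Ts-TPA, against 5.85, 5.49, 6.10 and 6.04 in WT-TPA.

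*Setd4* had the largest positive difference of any member in both conditions. It encodes a SET-domain methyltransferase and is the member next to *Cbr1*, where the duplicated segment begins. Its level was 6.47, 6.55, 6.89 and 6.94 in Ts-NT, against 6.31, 6.02, 6.63 and 6.63 in WT-NT. With TPA it was 6.56, 6.92, 6.69 and 7.14 in Ts-TPA, against 6.42, 6.27, 6.75 and 6.44 in WT-TPA. The groups overlapped in both conditions, and Ts was above WT in 4 of 4 same-numbered pairs untreated (5.39% of all genes) and in 3 of 4 with TPA. The relative differences were 0.47 (95% interval 0.05 to 0.90) and 0.56 (0.13 to 0.98). Before the median of all genes was subtracted, they were 0.32 (adjusted p = 0.535 in limma) and 0.36 (adjusted p = 0.419), and neither was called.

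*Sod1*, the cytosolic superoxide dismutase whose extra copy is a classic feature of other trisomy models, did not stand out. Its level was 8.83, 8.17, 7.78 and 7.79 in Ts-NT, against 8.43, 8.29, 7.83 and 8.49 in WT-NT. In treated cells it was 8.60, 7.49, 7.94 and 7.96 in Ts-TPA, against 8.84, 7.96, 8.14 and 8.70 in WT-TPA. The genotypes overlapped, with relative differences of 0.03 (adjusted p = 0.902) and −0.21 (adjusted p = 0.515). None of 7 tested genes that remove superoxide and peroxide was called in any comparison. In Ts-NT they ran from −0.58 relative to all genes for *Sod2*, the mitochondrial dismutase (adjusted p = 0.391), to 0.61 for *Ccs*, the copper chaperone of SOD1 (adjusted p = 0.386).

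**Figure D3:**
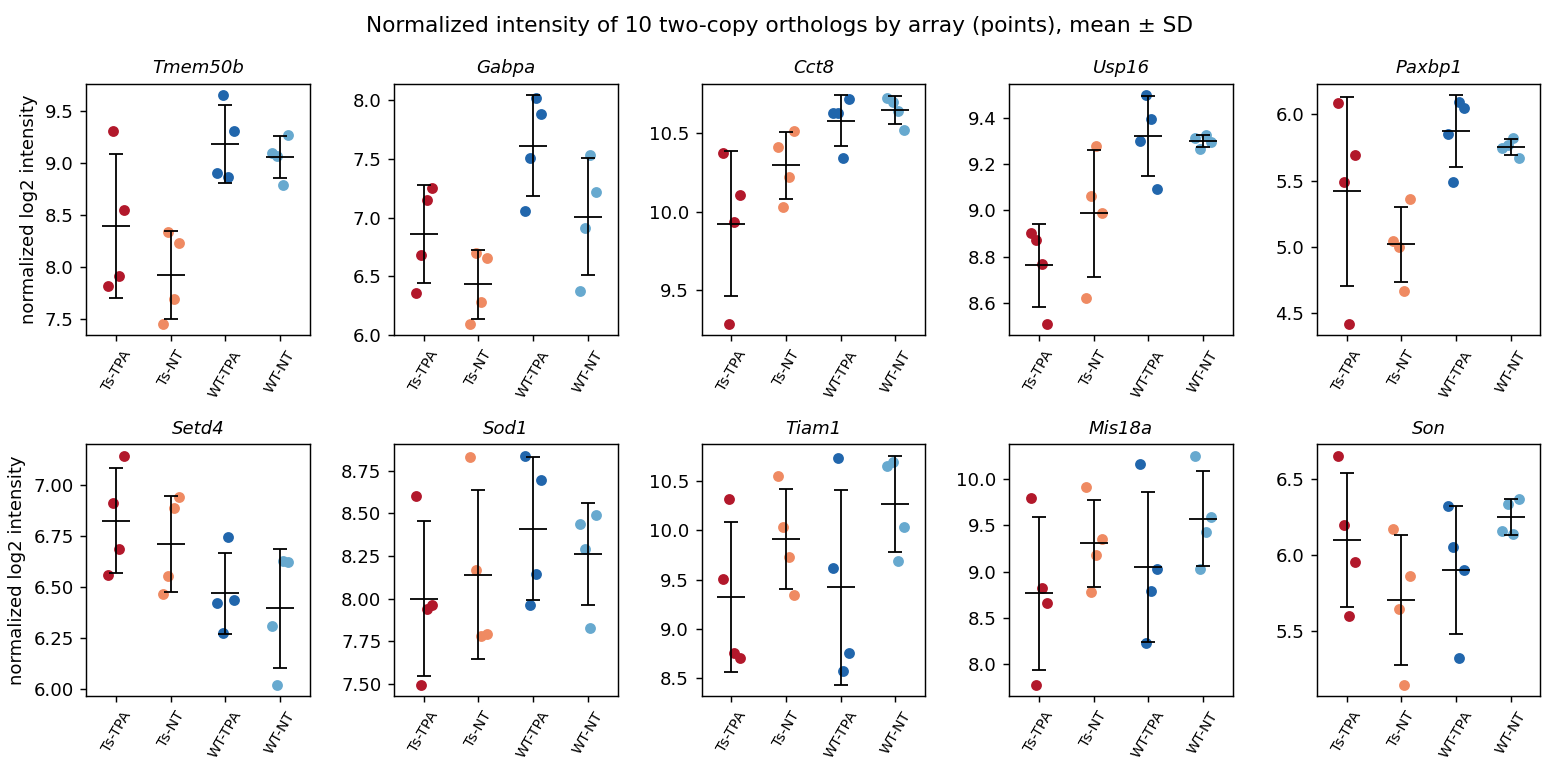
Normalized log2 intensity (y axis, own scale per panel) of 10 members on each array (points), with mean ± SD per group (n = 4), in the order Ts-TPA, Ts-NT, WT-TPA and WT-NT. *Tmem50b* shows Ts-NT below WT-NT without overlap (7.45 to 8.34, against 8.79 to 9.28), and *Tiam1* and *Mis18a* show arrays spread over more than 1 log2 unit within treated groups.

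By their brightest probes, the remaining tested members overlapped between genotypes in both conditions. Their relative differences in Ts-NT ran from −0.39 for *Son*, a splicing cofactor of nuclear speckles that was detected on 1 Ts-NT array, to 0.37 for *N6amt1*, the methyltransferase of the translation release factor eRF1. In Ts-TPA they ran from −0.22 for *Smim11*, which encodes a small membrane protein, to 0.46 for *Tmprss2*, a type II transmembrane serine protease. *Runx1*, a transcription factor of blood and hair follicle stem cells, averaged 6.60 ± 0.39 in Ts-NT against 6.72 ± 0.37 in WT-NT (SD, n = 4), a relative difference of 0.03. *Nrip1*, a corepressor of nuclear receptors, averaged 5.97 ± 0.20 in Ts-NT against 6.11 ± 0.12 in WT-NT, and was detected on 1 and 4 arrays of these groups. *Bach1*, a heme-regulated transcriptional repressor, averaged 6.54 ± 0.84 in Ts-NT against 6.69 ± 0.45 in WT-NT, a relative difference of −0.01. It was detected on 2 Ts-NT arrays and 4 WT-NT arrays, and its Ts-NT values ran from 5.57 to 7.46. *Adamts1*, a secreted protease that cleaves versican, averaged 6.79 ± 0.35 in Ts-NT against 6.83 ± 0.40 in WT-NT, a relative difference of 0.12. *Gart*, which encodes a trifunctional enzyme of purine synthesis, averaged 7.66 ± 0.13 in Ts-NT against 7.73 ± 0.18 in WT-NT, and its 2 probes gave 0.08 and 0.17. The quinone oxidoreductase-like *Cryzl1* gave 0.16 and −0.44 in Ts-TPA from its 2 probes, and neither was called.

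Genes that work with the members were taken from 21 lists, and 83 of these genes were tested. None was called between genotypes in either condition without the block by limma, with 12 of 83 at an unadjusted p under 0.05 in Ts-NT (12.0% of all genes) and 16 of 83 in Ts-TPA (13.8% of all genes). With the block 1 of 83 was called lower in Ts-NT and 3 of 83 in Ts-TPA, beside 1.50% and 2.24% of all genes. *Adss*, an adenylosuccinate synthase gene of the same purine pathway as *Gart*, was lower in Ts-NT, at −1.26 relative to all genes (adjusted p = 0.0355, or 0.101 without the block). In Ts-TPA, beside *Tcp1*, *Etf1* was at −0.51 (adjusted p = 0.0418, or 0.137 without) and *Srrm2* at −0.74 (adjusted p = 0.0321, or 0.180 without). *Etf1* encodes eRF1, the substrate of the *N6amt1* product, and *Srrm2* encodes, like *Son*, a protein of nuclear speckles.

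With TPA the members as a group lay close to the median of all genes, and none was called by limma. TPA was called to change 64 of 6063 genes (1.06%) in Ts and 161 (2.66%) in WT, tested within each genotype with the culture as a block. At an unadjusted p under 0.05 there were 2 of 19 members in Ts, against 13.7% of all genes, and 3 of 19 in WT, against 18.8%. The member median relative to all genes was −0.04 in Ts (6 of 19 above) and −0.004 in WT (9 of 19 above). Treated and untreated groups overlapped for every tested member in both genotypes, while among all genes they were apart in the higher direction for 2.00% in Ts and 3.03% in WT, and in the lower direction for 3.10% and 3.23%. The largest changes were those of *Tiam1*, *Gabpa* and *Mis18a* in WT and of *Tmem50b* and *Gabpa* in Ts. *Paxbp1* was detected on 1 Ts-TPA array and no Ts-NT array and is not ranked in Ts.

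*Tiam1* encodes a guanine nucleotide exchange factor that activates the GTPase Rac1. Its level was 9.62, 10.74, 8.57 and 8.76 in WT-TPA, against 10.66, 10.69, 9.69 and 10.04 in WT-NT. It was lower with TPA by about 1 log2 unit in the cultures numbered 1, 3 and 4 and was not lower in culture 2. The relative change was −0.79, which only 1.20% of genes matched or passed in that direction, and it missed the threshold (adjusted p = 0.0864). Without culture 2 it was −1.07 and passed (adjusted p = 0.0388). Over 11 alternatives it passed in 2, with changes from −1.07 to −0.645 and limma adjusted p from 0.0388 to 0.511. In Ts the values were 9.51, 10.32, 8.75 and 8.71 in Ts-TPA, against 10.55, 10.04, 9.73 and 9.35 in Ts-NT, a relative change of −0.49 (adjusted p = 0.362), with culture 2 again the exception.

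*Gabpa* was at higher values with TPA in both genotypes. In Ts it had 6.36, 6.68, 7.15 and 7.25 in Ts-TPA, against 6.09, 6.69, 6.28 and 6.66 in Ts-NT, with 3 of 4 cultures higher. In WT it had 7.06, 7.51, 8.01 and 7.88 in WT-TPA, against 6.37, 6.91, 7.54 and 7.22 in WT-NT, with 4 of 4 cultures higher (11.1% of all genes). The relative changes were 0.53 in Ts (adjusted p = 0.455) and 0.67 in WT (adjusted p = 0.0864), so neither passed. In WT the 95% interval was 0.30 to 1.03.

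*Mis18a*, whose protein primes centromeres for new CENP-A, had lower values with TPA in all 8 cultures. It read 9.79, 7.78, 8.83 and 8.66 in Ts-TPA, against 9.91, 8.78, 9.18 and 9.35 in Ts-NT. In WT it read 10.16, 8.22, 8.79 and 9.03 in WT-TPA, against 10.25, 9.03, 9.43 and 9.59 in WT-NT. Replicate 1 was the highest and replicate 2 the lowest in each of the 4 groups, so the groups overlapped although each pair moved the same way. The relative changes were −0.44 in Ts (adjusted p = 0.342) and −0.46 in WT (adjusted p = 0.164). Among all genes, 14.6% were lower in 4 of 4 cultures in Ts and 16.4% in WT. *Cenpa*, which encodes that histone, was at −0.83 in Ts (adjusted p = 0.0919) and −0.87 in WT (adjusted p = 0.0511), also short of the threshold.

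*Tmem50b* had 7.82, 9.31, 7.91 and 8.55 in Ts-TPA, against 7.45, 8.34, 7.70 and 8.23 in Ts-NT, higher in 4 of 4 cultures (7.13% of all genes). Its relative change was 0.57 in Ts (adjusted p = 0.391) and 0.19 in WT (adjusted p = 0.753). Its second probe gave 0.68 in Ts and 0.46 in WT, and neither probe passed. *Hmox1*, which is repressed by the product of the member *Bach1*, was at 1.08 in Ts (adjusted p = 0.106) and 0.81 in WT (adjusted p = 0.0915), while *Bach1* was at −0.04 and −0.18. Of the 83 partner genes 0 were called with TPA by limma, with 13 at an unadjusted p under 0.05 in Ts (13.7% of all genes) and 19 in WT (18.8% of all genes). One Hsa21 ortholog of the lists on chromosomes 17 and 10 passed, *Pttg1ip*, with 0.94 in WT (adjusted p = 0.0382), beside 0.92 in Ts (adjusted p = 0.115).

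**Figure D4:**
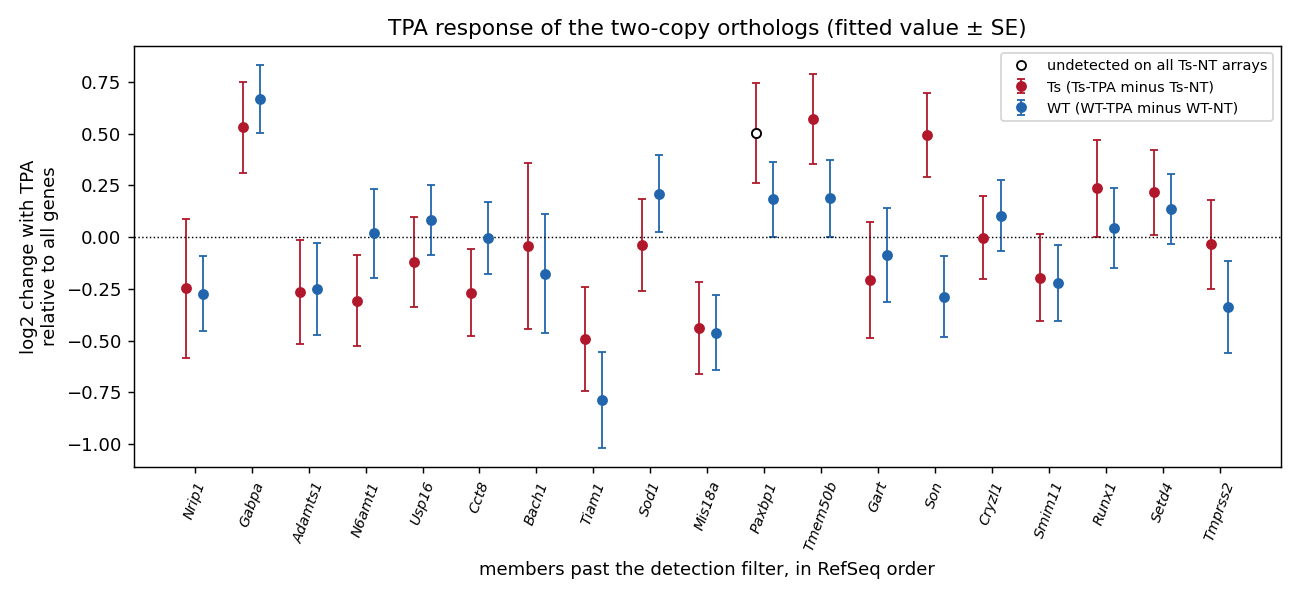
Fitted log2 change with TPA relative to all genes (points, bars ± SE) for the 19 tested members in Ts (red, left of each pair) and in WT (blue, right), in RefSeq order, with an open symbol for *Paxbp1*, undetected on all Ts-NT arrays. *Tiam1* and *Mis18a* lie below 0 and *Gabpa* above 0 in both genotypes. *Son* was detected on 1 array of each Ts group.

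The TPA response was then compared between genotypes in 1 fit with the 8 cultures as blocks. In this comparison 0 of 6063 genes (0.00%) were called by limma, while 195 (3.22%) had an unadjusted p under 0.05. The member median was 0.04, with 11 of 19 above the median of all genes. *Son* was the 1 member among these 195 (adjusted p = 1.00 in limma), but it was detected on 1 array each of Ts-TPA and Ts-NT, against 3 of WT-TPA and 4 of WT-NT, so its values in Ts lie mostly at background and no size of the difference is given. Its signal was 6.65, 6.19, 5.60 and 5.95 in Ts-TPA, against 6.17, 5.64, 5.15 and 5.86 in Ts-NT. In WT it was 6.32, 6.05, 5.33 and 5.90 in WT-TPA, against 6.16, 6.33, 6.13 and 6.37 in WT-NT. Values were higher with TPA in 4 of 4 Ts cultures and lower in 3 of 4 WT cultures. *Tmem50b*, detected on all arrays, was at 0.39 (adjusted p = 1.00). The comparisons above share arrays, so a member's values in them are not independent of each other.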

How the data were processed

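RNA of 16 arrays was measured, 4 per group, with 1 array per culture and treatment. The authors deposited raw bead intensities, unnormalized, with a detection p-value per probe against negative controls, and a table of vsn-normalized log2 values, which served as an alternative. The scanner software was not given in the sources used here. Starting from the intensities, the variance stabilizing model was rewritten in R 4.3.3 (tested on simulated data) and gave values that correlated at 0.958 to 0.964 with the authors' table. Background that goes with genotype affects signals near detection most. Detection at p of at most 0.01 on 4 of the 8 arrays of 1 genotype kept 8317 probes. limma 3.58.1 fitted 4 group means for the genotypes without a block, paired cultures for TPA, and 8 culture blocks for the difference in response, with Benjamini-Hochberg adjustment over all probes. statmod 1.5.0 served the random block.

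Probes were named from the platform annotation updated through RefSeq gene IDs: 23978 of 25697 had 1 symbol. Replicate numbers were taken to pair the arrays, since same-numbered arrays of both genotypes deviated together (correlations 0.52, 0.32, 0.36 and 0.29 untreated, and 0.57, 0.54, 0.34 and 0.24 with TPA), so the blocked value is given where it changes a call. Arrays of other numbers reached at most 0.26 untreated and 0.25 with TPA. Between treated and untreated arrays of a genotype, same numbers correlated most for numbers 1, 2 and 3. For number 4 another number correlated more (0.206 against 0.192 in WT, 0.094 against 0.067 in Ts), so these values do not show its pairing within a genotype. Whether a number stands for a litter or a day is not stated. Values in every array are given for called members, for the 3 members with the largest relative difference in each comparison, and for *Sod1*, *Setd4* and *Mx2*. *Usp16*, *Cct8* and single other genes were added after their values were seen. The members and gene lists were chosen with earlier results of these data known. Alternatives were other normalizations, filters, probe rules, blocks and leaving out single replicates.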

Additional observations from a re-analysis of the deposited data

Results flagged for a closer look

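*Cryzl1*, a quinone oxidoreductase-like gene, had 1 array far from the others of its group. In Ts-TPA replicate 1 read 7.438 and the nearest of the other 3 arrays read 7.726, a gap of 0.938 of the group's range and above Dixon's 95% critical value for 4 arrays. The members were screened in 76 sets of 4 arrays and this was the 1 that passed, where chance flags about 1 in 20.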

How the results depend on the processing

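Without a block 0 members were called between genotypes under any normalization, filter or probe rule. With the replicate block 1 member was called in each comparison, *Tmem50b* in Ts-NT and *Gabpa* in Ts-TPA, and *Tiam1* was the 1 member called with TPA in WT after quantile normalization (−0.66, adjusted p = 0.0460). *Tmem50b* stayed below WT-NT in all 24 alternatives (−1.13 to −0.57 relative to all genes, adjusted p 0.0199 to 0.361). It was called in 4 of these, all with the block: alone, with quantile normalization (1 member), with the authors' values (1 member) and without replicate 2. It was lost without replicate 1, 3 or 4 (adjusted p = 0.0903, 0.0964 and 0.166) and with neqc. *Gabpa* in Ts-TPA stayed negative in all 24 (−0.76 to −0.26, adjusted p 0.0485 to 0.658) and was called only with the block over all arrays. The blocked fits under other normalizations or without a replicate number were chosen after seeing the data.

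Of all genes, between Ts-NT and WT-NT 4 were called (0 higher and 4 lower), 4 with quantile normalization (2 and 2), 6 with the authors' values (2 and 4), 0 with neqc, without a filter, with the filter over any 4 of 16 arrays, with culture as a random block or with the 8 arrays alone, and 1 with the median of a gene's probes. With the replicate block 96 were called (5 higher and 91 lower), 18 with neqc (6 and 12), 59 with quantile normalization (33 and 26) and 29 with the authors' values (9 and 20). Between Ts-TPA and WT-TPA 1 was called, 2 with neqc or the median of probes, 0 with quantile normalization, the authors' values or the 8 arrays alone, and 64 without a filter. With the block 141 were called, 3 with neqc, 5 with quantile normalization and 23 with the authors' values. With TPA in WT 161 were called, 105 with the median of probes and 23 without the replicate block, and in Ts 64 and 26.

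Leaving out single replicates gave 0 to 14 genes for Ts-NT against WT-NT, 0 to 65 for Ts-TPA against WT-TPA (0 to 45 without the block), 20 to 283 for TPA in WT (283 without culture 1) and 24 to 85 for TPA in Ts, with 0 to 1 members called untreated and with TPA in WT. The member medians then ran from −0.12 to 0.0186 (Ts-NT, and −0.113 in the blocked fit without replicate 2), −0.12 to 0.15 (Ts-TPA), −0.18 to 0.049 (TPA in WT) and −0.25 to 0.00593 (TPA in Ts). *Sod1* changed sign in Ts-NT without a filter (−0.10), without replicate 1 in the blocked fit (−0.13), without Ts-NT replicate 1 (−0.17) and without WT-NT replicate 3 (−0.09; highest 0.159 without the block, without Ts-NT replicate 3, and 0.213 in the blocked fit without replicate 4), and with TPA in Ts without replicate 1 (0.02) or 2 (0.12; lowest −0.162, without replicate 3). *Setd4* changed sign in the difference in response without Ts replicate 2 (−0.00381; highest 0.171, without Ts replicate 3). Of 372 values of named members under other settings, 365 kept their direction, and 358 kept both direction and side of the threshold. No member was called in the main fits, so keeping the side means that it was again not called. These values include the blocked fits chosen after seeing the data. Members near the detection limit (*Paxbp1*, *Son*, *Nrip1* and, on some arrays, *Bach1*) are limited by signal over background.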
